A study of Mus musculus with 6 samples.

Results

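The insulin-like growth factor (IGF) binding proteins and IGF receptors were followed in mouse embryonic stem cells of the R1 line that carried a hairpin RNA against KIAA1718 or against luciferase. The set held 10 genes: the binding protein genes Igfbp1 to Igfbp7, the ligand gene Igf1, and the receptor genes Igf1r and Insr. All probe sets that the array annotation assigns to these symbols were taken, which gave 28 of the 45037 probe sets other than controls, and 10 of 18193 named genes. The family was chosen with its values in this same comparison already known, the Igfbp3 difference among them. The differences of its members are therefore given as descriptions, with no p-value. The same holds for whether a member passed the threshold used below.

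Cells of one population had been infected with a lentivirus expressing KIAA1718 shRNA1, and cells of the other with a lentivirus expressing a luciferase shRNA. Both populations were sorted for GFP, and RNA from 3 samples of each was hybridised to Affymetrix Mouse Genome 430 2.0 arrays, which read each transcript with sets of short oligonucleotide probes. KIAA1718 is the product of Kdm7a, a histone demethylase. Each group carried a single hairpin, so effects of the hairpin sequence on other transcripts cannot be told apart from effects of targeting KIAA1718. The labels do not say whether the replicates were independent cultures, so intervals and p-values cover only sample-to-sample spread, part or all of which could be technical. The promoter driving the hairpins is not given in the sources used here.

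IGF1 and IGF2 signal through the IGF1 receptor, a tyrosine kinase close to the insulin receptor, and from there through insulin receptor substrates, phosphoinositide 3-kinase and AKT, which keeps FoxO transcription factors out of the nucleus. Secreted IGF binding proteins hold the ligands outside the cell, prolong their life and limit or extend their access to the receptor, and proteases such as pappalysin release the ligand again. In pluripotent stem cells the pathway is known for supporting survival and growth.

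The start regions of 3 binding protein genes on chromosome 11 are shown because Igfbp3 and Igfbp4 had the largest differences of the family, while Igfbp1, next to Igfbp3 on the chromosome, gave almost no signal. The sequences are the 130 bases before the start, 5′ to 3′ on the gene's strand, from RefSeq with GRCm38.p6 coordinates. They lie at chr11:7213924-7214053 (minus strand) for Igfbp3, at chr11:99041114-99041243 (plus strand) for Igfbp4 and at chr11:7197657-7197786 (plus strand) for Igfbp1. Capitals mark the searched motif that each one holds.
Igfbp3: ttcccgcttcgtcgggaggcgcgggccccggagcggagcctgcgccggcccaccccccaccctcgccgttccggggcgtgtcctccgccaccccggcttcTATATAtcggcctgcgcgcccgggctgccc
Igfbp4: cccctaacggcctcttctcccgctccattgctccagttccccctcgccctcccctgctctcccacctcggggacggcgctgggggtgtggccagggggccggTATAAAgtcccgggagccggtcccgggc
Igfbp1: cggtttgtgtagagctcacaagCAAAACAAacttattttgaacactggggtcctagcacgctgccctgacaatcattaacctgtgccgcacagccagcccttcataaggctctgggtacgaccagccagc

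Motifs were searched on both strands of the 250 bases before the start. Windows were found for 9 of the 10 genes. TATATA and TATAAA are forms of the TATA box, GGGCGG is the core of a GC box, and CAAAACAA is the core of the insulin response element known from the Igfbp1 promoter. Of 32851 windows of that length, 12.4% held TATAAA, 5.25% held TATATA, 32.7% held GGGCGG and 2.21% held CAAAACAA. In Igfbp3 TATATA began at -30, and in Igfbp4 TATAAA began at -28. In Igfbp1 CAAAACAA began at -108. GGGCGG was found in the windows of Igfbp7 and Igf1r, and in 1 of the 2 windows of Igfbp2. TATAAA was found on the opposite strand of Igfbp6 at -148. The Igfbp3 window had a GC content of 73.2% with 32 CpG dinucleotides and the Igfbp4 window 69.2% with 22. Igfbp1 had 53.2% and 5 CpG, and the median GC content over all windows was 52.4%. High values were not particular to Igfbp3 and Igfbp4, since Igf1r had 77.6% with 42 CpG and Igfbp7 74% with 26. The Igfbp2 windows had 67.2% and 56.4%, and Igfbp5, Igfbp6 and Igf1 had 49.6% to 58.8%. These motif matches and base contents describe the letters only.

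Values below are the deposited signal intensities, whose scaling is not named in the sources used here and whose median per array ran from 9.58 to 13.3. Differences are KIAA1718 shRNA1 minus luciferase shRNA on the quantile-normalised log2(signal + 16) scale, which understates the change of dim probe sets, and ± is a standard error. Kdm7a itself did not pass the test and so does not check the labels: its brightest probe set read 40.9, 23.8 and 34.9 in KIAA1718 shRNA1 cells and 33.3, 31.2 and 44.9 in luciferase shRNA cells, a difference of -0.20 (limma, adjusted p = 0.533). Stem cell markers gave strong signal, with Pou5f1, a core pluripotency factor, at 916 to 1151 in KIAA1718 shRNA1 cells and 1072 to 1131 in luciferase shRNA cells. Of 12 such markers 3 fell, namely Esrrb (-1.16), Fgf4 (-0.72) and Utf1 (-0.44), where 2.18% of all genes fell. This list and the gene lists below were chosen with earlier results of these data known. Their counts are therefore not read as an excess over the shares beside them. With the replicate block Nanog fell too, at -0.42 (limma, adjusted p = 0.0494). With the fibroblast marker mean as a covariate Utf1 did not pass (limma, adjusted p = 0.0597). Of the 12, 11 lay below 0, and their mean log2 level was 9.59 to 9.76 in KIAA1718 shRNA1 cells and 9.95 to 10.01 in luciferase shRNA cells, a difference of -0.30 (exact permutation p = 0.1, the smallest that 3 against 3 arrays can give). The part of this in the member differences was not tested.

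Of the 28 member probe sets, 21 were bright enough to test, from 9 genes. The 7 others had group means of 1.45 to 8.09 signal units, and no single value above 10.4. A total of 5 of the 21 were past the threshold of an adjusted p of 0.05 over all probe sets, all of them higher, against 3.68% of all tested probe sets in either direction, 1.95% higher and 1.74% lower. These belonged to only 2 genes, Igfbp3 and Igfbp4. The normalised values of the groups did not overlap for 9 of the 21, 7 higher and 2 lower, where 24.3% of all tested probe sets did not overlap. The median difference was 0.12 over the 21 and 0.00262 over all tested probe sets. Because the family was chosen from this comparison, nothing is read from these counts.

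**Figure D1:**
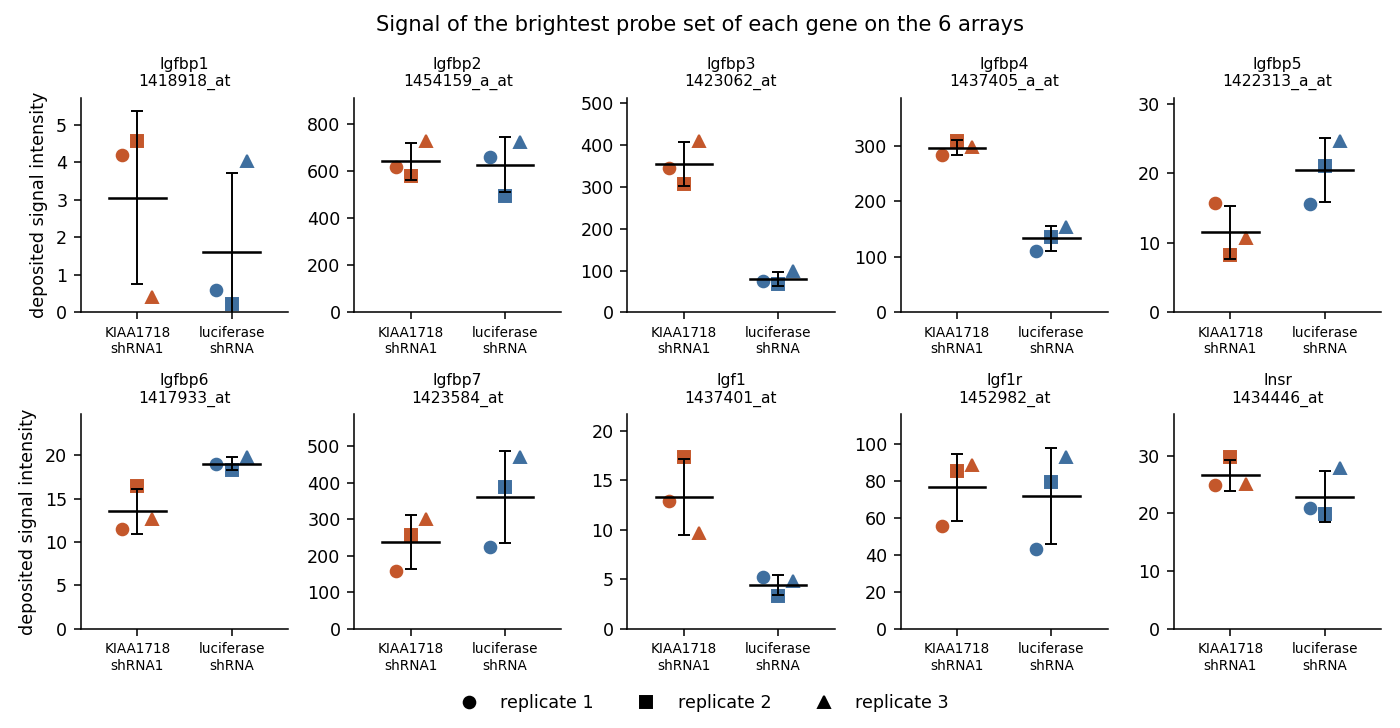
Deposited signal intensity (vertical axes, arbitrary units, each from 0) of the brightest probe set of each of the 10 genes in KIAA1718 shRNA1 cells (orange) and luciferase shRNA cells (blue). Symbols mark the replicate number, and lines and bars show the mean and SD of 3 arrays, with bars not drawn below 0. The Igfbp3 and Igfbp4 groups stand apart, at 306 to 410 against 67.8 to 98.8 and at 282 to 309 against 109.9 to 154.

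Igfbp3, which encodes the binding protein that carries most IGF in blood, had the largest difference of the family. Probe set 1423062_at read 346, 306 and 410.4 in KIAA1718 shRNA1 cells, against 75.0, 67.8 and 98.8 in luciferase shRNA cells. All 3 KIAA1718 shRNA1 arrays were at least 3 times as bright as any luciferase array. The means were 354 ± 52.5 and 80.6 ± 16.2 (SD, n = 3 each), and the normalised difference was 1.82 ± 0.12, with a 95% interval of 1.57 to 2.07. Within arrays of the same replicate number it was 1.88, 1.68 and 1.90.

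The other Igfbp3 probe set, 1458268_s_at, shows the same separation. It read 245, 253 and 301 in KIAA1718 shRNA1 cells, against 52.4, 44.6 and 76.4 in luciferase shRNA cells, with a difference of 1.83 (95% interval 1.57 to 2.09). The lowest KIAA1718 shRNA1 array was far above the highest luciferase array for both probe sets. Over 15 alternative ways of handling the data, the difference ran from 1.67 to 1.95 for 1423062_at and from 1.64 to 2.02 for 1458268_s_at. Both stayed past the threshold in all 15. The alternatives reuse the arrays from which the family was chosen, so they describe only how far the difference depends on the handling.

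Igfbp4 encodes a binding protein that mainly restrains IGF action and is cleaved by pappalysin. It had 6 probe sets, of which 5 were tested. The brightest, 1437405_a_at, read 282, 309 and 297 in KIAA1718 shRNA1 cells, against 109.9, 136 and 154 in luciferase shRNA cells. The groups did not overlap, the means being 296 ± 13.1 and 133 ± 22.0 (SD, n = 3 each), and the difference was 0.94 ± 0.12 (95% interval 0.68 to 1.20). Probe set 1423756_s_at read 122, 120.3 and 141 in KIAA1718 shRNA1 cells, against 46.0, 54.7 and 68.5 in luciferase shRNA cells, again without overlap, with a difference of 0.88 (0.62 to 1.14).

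The dimmer Igfbp4 probe sets showed less. Probe set 1421992_a_at read 43.2, 49.5 and 38.5 in KIAA1718 shRNA1 cells, against 18.9, 22.2 and 21.0 in luciferase shRNA cells, a difference of 0.60 (0.28 to 0.92). Its groups did not overlap, but it was not past the threshold in 9 of 15 alternatives, among them each of the 6 that left out 1 array, where its difference was 0.51 to 0.70. Probe set 1423757_x_at read 71.3, 55.2 and 69.2 in KIAA1718 shRNA1 cells, against 32.6, 46.3 and 42.2 in luciferase shRNA cells. Its deposited signals did not overlap while its normalised values did, and its difference of 0.42 (0.08 to 0.75) was not past the threshold.

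One Igfbp4 probe set went the other way. Probe set 1437406_x_at read 64.7, 49.2 and 72.7 in KIAA1718 shRNA1 cells, against 118, 94.6 and 59.7 in luciferase shRNA cells, a difference of -0.54 (-1.07 to -0.01) with overlapping groups. The luciferase array numbered 3 was the low one, and without it the difference was -0.88, past the threshold. In the array's naming an x marks a set with probes that also match other transcripts, as in 1423757_x_at, and an s marks probes shared by several transcripts, as in 1423756_s_at and 1458268_s_at. The annotation ties this set and 1437405_a_at to the same source sequence. The last probe set, 1421991_a_at, stayed between 0.777 and 2.70 on all 6 arrays and was not tested.

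**Figure D2:**
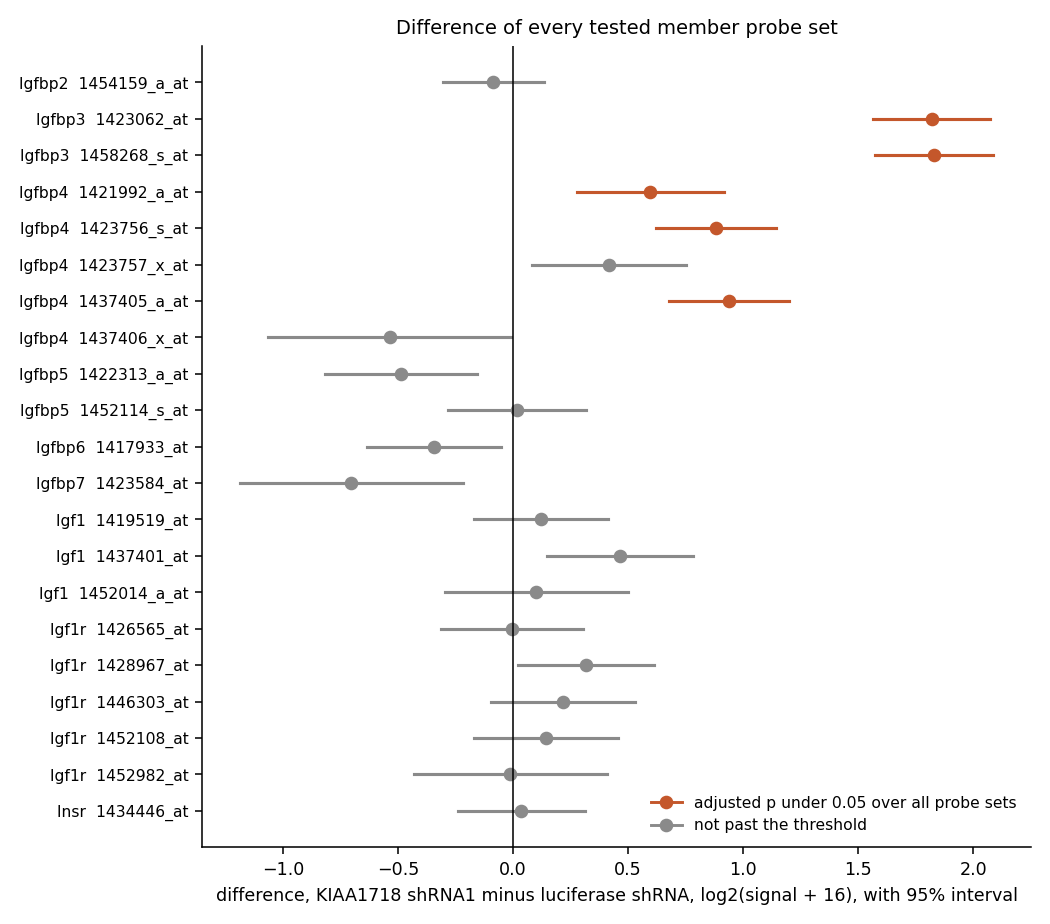
Difference between KIAA1718 shRNA1 and luciferase shRNA cells (horizontal axis, log2(signal + 16)) of the 21 tested member probe sets, with 95% intervals. Orange marks the 5 past the threshold, which are both Igfbp3 sets, at 1.82 and 1.83, and 3 Igfbp4 sets, at 0.60 to 0.94, while 1437406_x_at of Igfbp4 lies at -0.54.

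Igfbp7 encodes a secreted relative with low affinity for IGF that is made by fibroblasts and vessel cells. Probe set 1423584_at read 157, 256 and 300.1 in KIAA1718 shRNA1 cells, against 224, 388 and 470.1 in luciferase shRNA cells. The groups overlapped, but in both the array numbered 1 was lowest and that numbered 3 highest. The difference was -0.70 ± 0.22 (-1.19 to -0.22), not past the threshold. Within equal replicate numbers it was -0.59, -0.86 and -0.66. With the replicate number as a block the interval was -0.93 to -0.48 and the probe set was past the threshold, as were 6.16% of all probe sets in that fit, 3.06% higher and 3.1% lower. Without the first luciferase array the difference was -0.97 and also past the threshold. The 2 other Igfbp7 probe sets were too dim to test, 1423585_at reading 4.99, 6.35 and 1.33 in KIAA1718 shRNA1 cells against 8.51, 10.4 and 5.39 in luciferase shRNA cells.

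Like the Igfbp7 signal, the mean level of fibroblast markers was lowest on the first array of each group. Feeder layers of stem cell cultures are usually fibroblasts, and in bulk samples fewer cells of a type and less RNA per cell cannot be told apart. Of 24 fibroblast marker genes 23 were measured. Their mean log2 level was 7.34, 7.63 and 7.72 in KIAA1718 shRNA1 cells, against 7.43, 8.20 and 8.16 in luciferase shRNA cells. The difference of -0.37 had an exact two-sided permutation p of 0.3, where 3 against 3 arrays cannot give less than 0.1. None of the 23 passed the test (limma, with 5 at an unadjusted p under 0.05) and 21 lay below 0. The share of all probe sets at that unadjusted cut was not counted, so such counts, here and below, are not read as an excess. With the replicate block 8 fell, in a fit that called 7.85% of all genes in either direction and 3.1% of all probe sets lower. Their summed signal was 7307 to 10454 in KIAA1718 shRNA1 cells and 7059 to 13333 in luciferase shRNA cells. Col1a1, a defining marker, read 104, 50.7 and 193 in KIAA1718 shRNA1 cells and 126, 399 and 505 in luciferase shRNA cells. Its difference of -1.53 was the largest of the 23, whose median was -0.30. The 2 markers above 0 were Mmp2 at 0.26 and Timp3 at 0.09.

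With the fibroblast mean as a covariate, the Igfbp7 difference was -0.26, while that of Igfbp3 was 1.80 for 1423062_at and 1.84 for 1458268_s_at. In that fit 1.35% of all probe sets were past the threshold. They included both Igfbp3 sets and the Igfbp4 sets 1437405_a_at, at 1.03, and 1423756_s_at, at 0.96, but not 1421992_a_at, at 0.57. The fibroblast part in the Igfbp7 difference was not tested further.

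**Figure D3:**
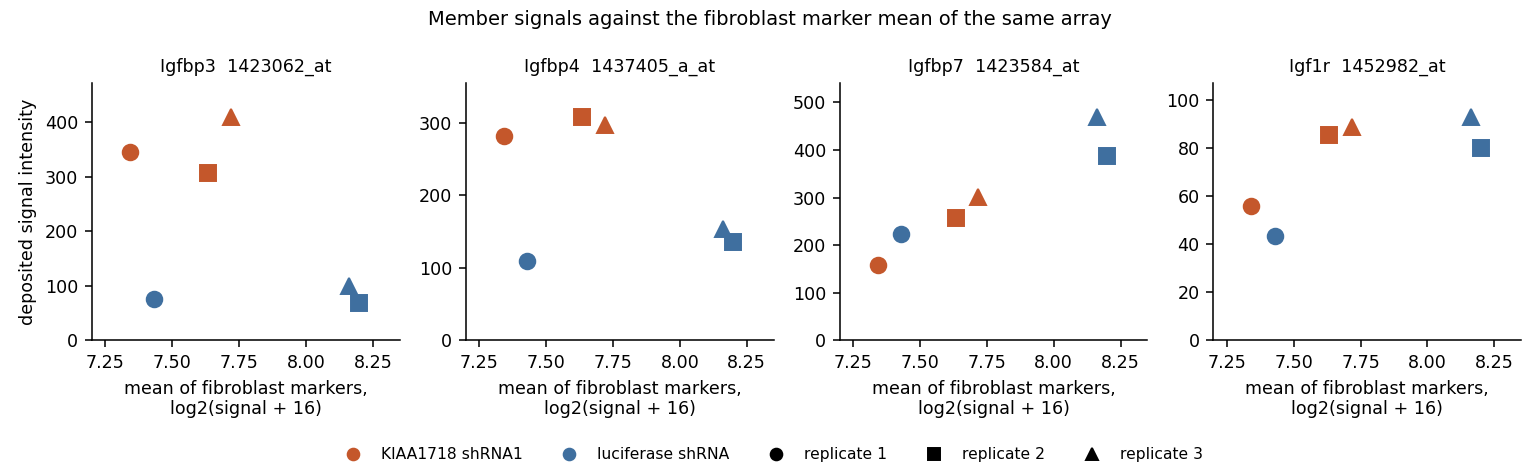
Deposited signal intensity of Igfbp3, Igfbp4, Igfbp7 and Igf1r (vertical axes, from 0) against the mean of 23 fibroblast markers on the same array (horizontal axis, log2(signal + 16)), with KIAA1718 shRNA1 cells in orange, luciferase shRNA cells in blue and a symbol for each replicate number. Igfbp7 is lowest, at 157 and 224, on the arrays with the lowest fibroblast means, 7.34 and 7.43. Igfbp3 reads 306 to 410.4 at means of 7.34 to 7.72 in KIAA1718 shRNA1 cells, and 75.0 at a mean of 7.43 in luciferase shRNA cells, whose other arrays, at 8.16 and 8.20, have no counterpart.

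Some markers of other cell types also differed. Of 10 tested primitive endoderm genes 4 fell, namely Sox7 (-0.85), Pdgfra (-0.71), Dab2 (-0.59) and Lama1 (-0.54), where 2.18% of all genes fell. These marker lists too were chosen with earlier results known, so no excess is read from their counts. With the fibroblast covariate only Sox7 fell (limma, adjusted p = 0.0478), the adjusted p-values of Pdgfra, Dab2 and Lama1 being 0.0597, 0.144 and 0.189. The summed signal of the list was 996 to 1084 in KIAA1718 shRNA1 cells and 989 to 1393 in luciferase shRNA cells. Its mean log2 level did not overlap, at 5.53 to 5.57 in KIAA1718 shRNA1 cells and 5.80 to 5.94 in luciferase shRNA cells, a difference of -0.30 (exact permutation p = 0.1). Of 5 tested endothelial genes, Tek rose by 0.77, where 2.67% of all genes rose. The summed signals of the list were 125 to 134 in KIAA1718 shRNA1 cells and 79.9 to 82.1 in luciferase shRNA cells. The endothelial mean was 5.02 to 5.10 in KIAA1718 shRNA1 cells and 4.72 to 4.86 in luciferase shRNA cells, a difference of 0.25 (exact permutation p = 0.1). None of 5 trophectoderm genes passed the limma test, also without adjustment, with sums of 133 to 149 in KIAA1718 shRNA1 cells and 75.7 to 119 in luciferase shRNA cells. The trophectoderm mean overlapped, at 4.75 to 4.89 in KIAA1718 shRNA1 cells and 4.62 to 4.77 in luciferase shRNA cells, a difference of 0.16 (exact permutation p = 0.2). The part of these cell types in the member differences was not tested.

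Igfbp2, known as the binding protein most associated with early embryonic and fetal cells, was bright in both groups. Probe set 1454159_a_at read 616, 579 and 729 in KIAA1718 shRNA1 cells, against 661, 497 and 723 in luciferase shRNA cells. The groups overlapped, and the difference of -0.09 had an interval of -0.31 to 0.14, so a change as large as that of Igfbp3 or Igfbp4 lies outside it.

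Igfbp5 and Igfbp6 were dim. Igfbp5 encodes a binding protein that attaches to the extracellular matrix, and its probe set 1422313_a_at read 15.7, 8.24 and 10.7 in KIAA1718 shRNA1 cells, against 15.6, 21.0 and 24.7 in luciferase shRNA cells. The deposited signals overlapped narrowly at the first array of each group, the normalised values did not, and the difference was -0.49 (-0.82 to -0.16). Its other probe set, 1452114_s_at, lay between 4.03 and 10.5 on all 6 arrays with overlapping groups, a difference of 0.02 (-0.29 to 0.32).

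Igfbp6 encodes a binding protein that prefers IGF2. Probe set 1417933_at read 11.5, 16.4 and 12.7 in KIAA1718 shRNA1 cells, against 19.0, 18.3 and 19.8 in luciferase shRNA cells. Every KIAA1718 shRNA1 array was below every luciferase array, with a difference of -0.34 (-0.64 to -0.05), not past the threshold. Igfbp1, the insulin-regulated binding protein of liver, was near the floor: 1418918_at read 4.20, 4.57 and 0.402 in KIAA1718 shRNA1 cells and 0.589, 0.214 and 4.03 in luciferase shRNA cells and was not tested.

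The ligand gene Igf1 was also dim. Probe set 1437401_at read 13.0, 17.3 and 9.72 in KIAA1718 shRNA1 cells, against 5.19, 3.31 and 4.85 in luciferase shRNA cells. The groups did not overlap, and the difference of 0.46 (0.15 to 0.78) was not past the threshold. The 2 other tested Igf1 probe sets differed by 0.12 and 0.10 with overlapping groups, and 1434413_at was too dim to test.

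Igf1r encodes the receptor through which both ligands signal. Its brightest probe set, 1452982_at, read 55.7, 85.4 and 88.6 in KIAA1718 shRNA1 cells, against 43.2, 79.8 and 92.9 in luciferase shRNA cells. The first array of each group was the low one, as for Igfbp7, and the groups overlapped throughout. The difference was -0.01 (-0.43 to 0.41), and 0.33 with the fibroblast mean as a covariate. Probe set 1428967_at read 35.2, 31.3 and 37.1 in KIAA1718 shRNA1 cells, against 15.9, 19.8 and 31.6 in luciferase shRNA cells. Its deposited signals overlapped at the third luciferase array, its normalised values did not, and its difference was 0.32 (0.02 to 0.61). The 3 other Igf1r probe sets differed by 0.22, 0.14 and -0.005, each with an interval that included 0. No Igf1r probe set was past the threshold.

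Insr encodes the insulin receptor, and 1 of its 3 probe sets was testable. Probe set 1434446_at read 24.9, 29.7 and 25.1 in KIAA1718 shRNA1 cells, against 21.0, 19.9 and 27.9 in luciferase shRNA cells. The groups overlapped at the third luciferase array, and the difference was 0.04 (-0.24 to 0.31).

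The other genes of the pathway were tested as non-members, in the same fit over 27022 probe sets, with 1 probe set for each gene. Of 46 listed genes of IGF and insulin signalling 40 were tested. None rose and 1 fell, where 4.85% of all 12734 genes were past the threshold, 2.67% higher and 2.18% lower. Of the 40, 21 lay above 0, with a median of 0.03. At an unadjusted p under 0.05 (limma) there were 7, but the share of all genes at that cut was not counted, so nothing is read from this count. The gene that fell was Grb14, an adaptor that inhibits the insulin receptor. It read 19.9, 24.8 and 23.5 in KIAA1718 shRNA1 cells, against 30.8, 40.5 and 55.2 in luciferase shRNA cells, without overlap, a difference of -0.67 ± 0.14 (limma, adjusted p = 0.022). The call was lost on leaving out any 1 array except the first luciferase array, with adjusted p-values of 0.0505 to 0.111 and differences of -0.71 to -0.61. It was also lost with the fibroblast covariate (-0.53, adjusted p = 0.119), with no normalization (adjusted p = 0.12) and with no filter (adjusted p = 0.0856).

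The next gene by p was Lrp1, a large endocytic receptor that also binds IGFBP3, at -0.59 (limma, adjusted p = 0.065). It read 60.1, 72.7 and 88.8 in KIAA1718 shRNA1 cells, against 76.4, 104 and 155 in luciferase shRNA cells. The deposited signals of the groups overlapped, the normalised values did not, and in both groups the array numbered 1 had the lowest signal and that numbered 3 the highest. With the replicate block Lrp1 fell (adjusted p = 0.0181), and so it did without the first luciferase array, at -0.76. With the block, Gab1, a docking protein of receptor kinases, rose by 0.38 (adjusted p = 0.0183). That fit called 7.85% of all genes in either direction and 3.06% of all probe sets higher.

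Direct partners of the family did not pass the test. Igf2, the main fetal ligand, read 92.7, 134 and 159 in KIAA1718 shRNA1 cells, against 42.9, 165 and 211 in luciferase shRNA cells. The groups overlapped widely, the first array of each being lowest, and the difference was -0.05 (limma, adjusted p = 0.96), but 0.71 with the fibroblast mean as a covariate (adjusted p = 0.0447). The scavenger receptor gene Igf2r differed by 0.23, the docking protein genes Irs1 and Irs2 by 0.31 and 0.56, and the kinase gene Akt1 by -0.34. Irs2 passed without the first luciferase array, at 0.82. The transcription factor gene Foxo1 differed by 0.01, the IGFBP4 protease gene Pappa by -0.18 and Tmem219, a proposed IGFBP3 receptor, by -0.16. The adjusted p-values of these 7 genes ran from 0.144 to 0.985 (limma). Igfals, which stabilises IGF complexes in serum, was too dim to test.

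Of 11 listed relatives that share the IGF-binding domain 9 were tested and none passed (limma, with 1 at an unadjusted p under 0.05), in the main setting or in any alternative, where 4.85% of all genes passed. The smallest p-values were those of Htra1, a secreted protease, at -0.36 (95% interval -0.63 to -0.08, adjusted p = 0.156) and Kazald1 at 0.16 (adjusted p = 0.654).

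Among 11 tested FoxO target genes 2 rose and none fell in the limma test, where 2.67% of all genes rose and 2.18% fell. The FoxO list was chosen with earlier results of these data known, so no excess is read from this count. At an unadjusted p under 0.05 there were 3 higher and 3 lower, a cut whose share over all genes was not counted. In all, 5 lay above 0, with a median of -0.01. Bcl2l11, which encodes the pro-apoptotic protein BIM, read 429, 464 and 430.0 in KIAA1718 shRNA1 cells, against 246, 169 and 279 in luciferase shRNA cells. All KIAA1718 shRNA1 arrays were above all luciferase arrays, with a difference of 0.77 ± 0.12 (limma, adjusted p = 0.00621), and the call held in all 15 alternatives. Sesn3, a stress-induced inhibitor of mTORC1 signalling, read 65.9, 67.9 and 84.5 in KIAA1718 shRNA1 cells, against 39.5, 30.2 and 52.7 in luciferase shRNA cells. It rose by 0.55 (adjusted p = 0.0382), a call lost on leaving out any single array, with differences of 0.48 to 0.60 and adjusted p-values of 0.0558 to 0.136. It was also lost with the fibroblast covariate (adjusted p = 0.144) and with no normalization (adjusted p = 0.0752). Its relative Sesn1 fell by 0.57 with the replicate block (adjusted p = 0.0373), and also passed, lower, with a pseudocount of 32, with 60% of probe sets left out and without the first KIAA1718 shRNA1 array.

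**Figure D4:**
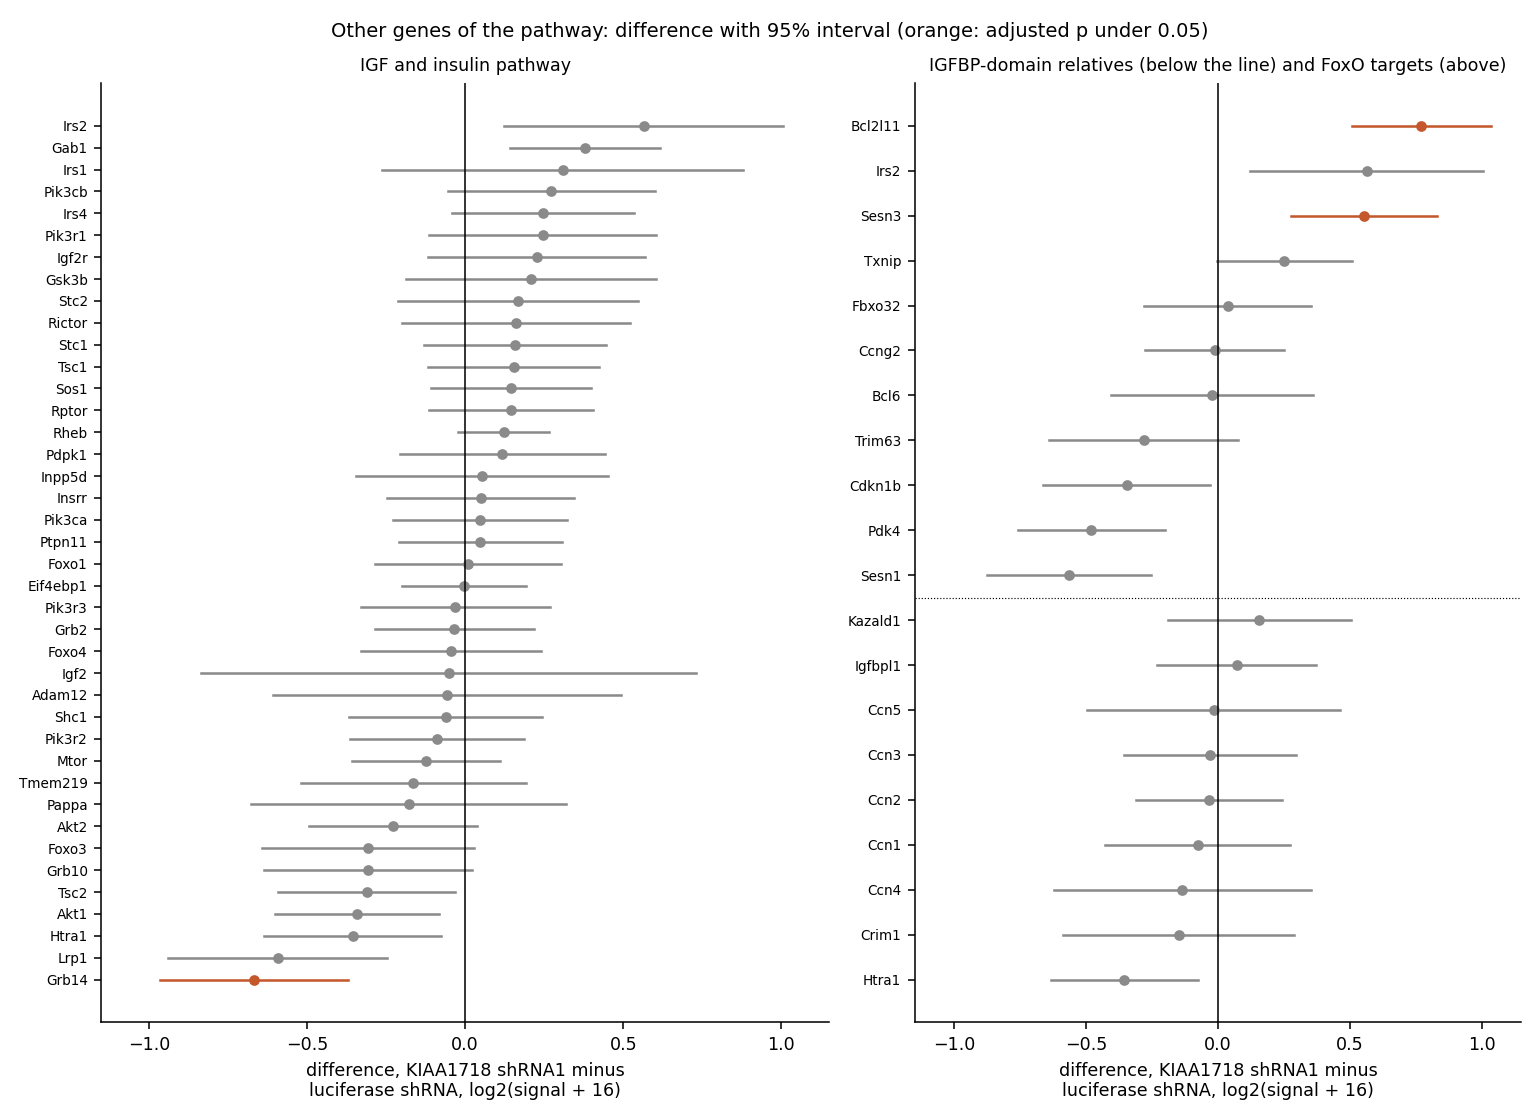
Difference between KIAA1718 shRNA1 and luciferase shRNA cells (horizontal axes, log2(signal + 16)) with 95% intervals for 40 pathway genes (left), and for 11 FoxO targets above the dotted line and 9 relatives with the IGF-binding domain below it (right). Orange marks an adjusted p under 0.05, reached by Grb14 at -0.67, Bcl2l11 at 0.77 and Sesn3 at 0.55.

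Genes next to the binding protein genes were compared with them by their order in RefSeq. Around Igfbp1 and Igfbp3 none of 6 tested neighbours passed (limma, with 2 at an unadjusted p under 0.05), their differences running from -0.23 for Tns3 to 0.50 for Ramp3, a receptor accessory protein (adjusted p = 0.0857). Ramp3 passed only without the first luciferase array, at 0.64. Tbrg4 was at 0.12, Adcy1 at -0.08, Hus1 at -0.01 and Upp1 at -0.06. Tns3 had an unadjusted p of 0.0488 with an adjusted p of 0.263 (limma). Such unadjusted p-values were thus common over all probe sets. The counts of neighbours under 0.05, here and below, are not read as an excess.

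Around Igfbp2 and Igfbp5, all 6 neighbours lay below 0, 5 of them at an unadjusted p under 0.05, and Xrcc5, a DNA end-binding protein of double-strand break repair, fell by 0.50 (adjusted p = 0.0143). It lost its call without the third KIAA1718 shRNA1 array, at -0.51, and without the third luciferase array, at -0.50. The call was also lost with no normalization, at -0.36 (adjusted p = 0.323), and with the fibroblast covariate, at -0.50 (adjusted p = 0.0744). The others were Smarcal1 at -0.26, Rpl37a at -0.13, Tns1 at -0.35, Arpc2 at -0.05 and Aamp at -0.28.

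Beside Igfbp4, 3 of 6 neighbours had an unadjusted p under 0.05. Top2a, the topoisomerase of dividing cells, rose by 0.37 (adjusted p = 0.0177). It lost its call without the third KIAA1718 shRNA1 array, at 0.32, or luciferase array 1 or 3, at 0.35 and 0.37. The call was also lost with trimmed-mean scaling (adjusted p = 0.0643), with no filter (adjusted p = 0.075) and without the intensity trend (adjusted p = 0.112). Cdc6, a replication licensing factor, was at 0.35 (adjusted p = 0.0696) and rose only with the replicate block (adjusted p = 0.0388). Rara was at -0.17, Smarce1 at 0.05, Krt10 at 0.14 and Krt12 at 0.35. The brightest probe sets of Igfbp3 and Igfbp4 differed by more than any of their tested neighbours shown here, while other Igfbp4 sets lay at 0.42 and -0.54. The family was chosen with its values known and the neighbours were not, so nothing is read from this.

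**Figure D5:**
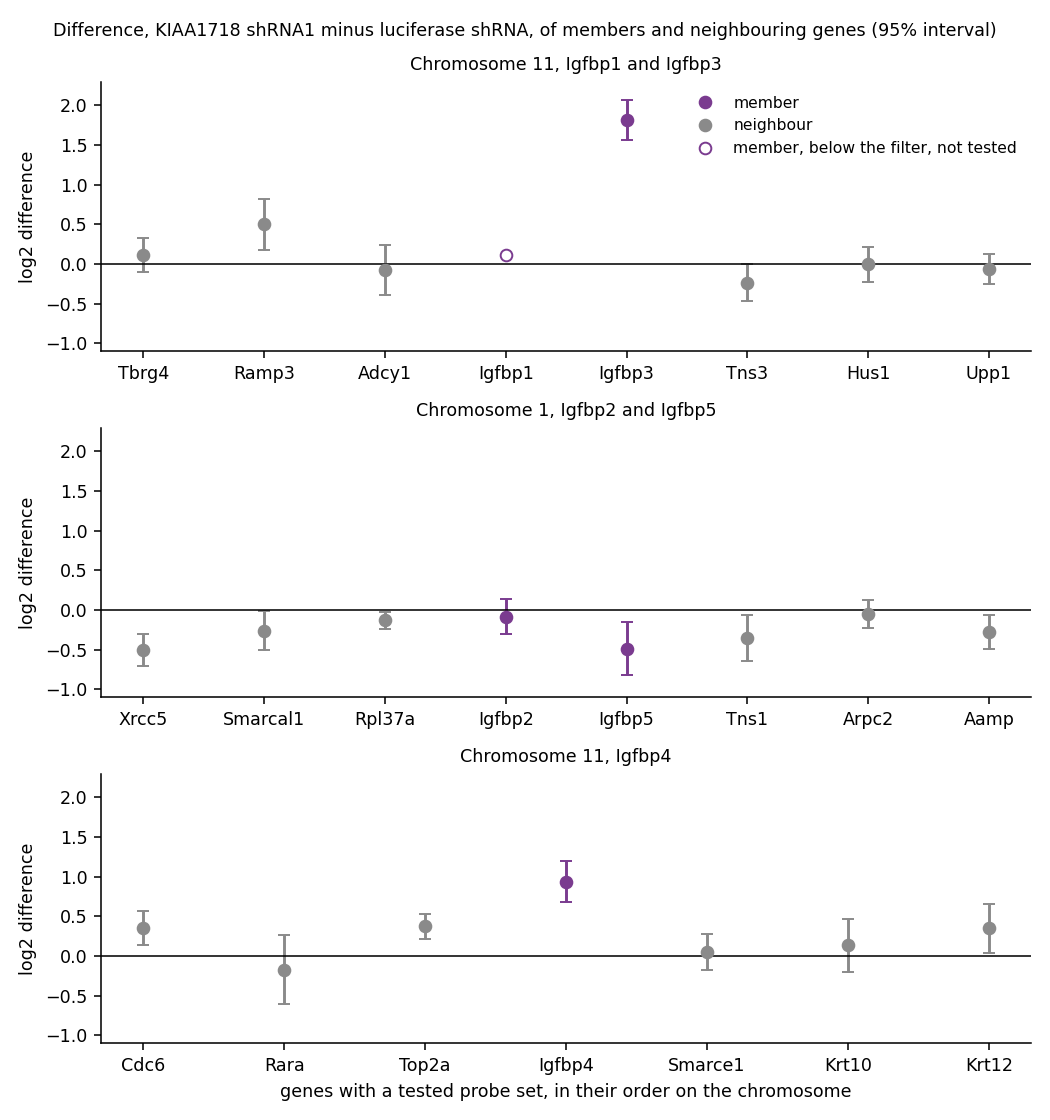
Difference between KIAA1718 shRNA1 and luciferase shRNA cells (vertical axes, log2(signal + 16)) with 95% intervals for members (purple) and neighbouring genes (grey), in their order on chromosomes 11, 1 and 11, with Igfbp1 open because it was too dim to test. The brightest probe sets of Igfbp3, at 1.82, and Igfbp4, at 0.94, stand above neighbours at -0.23 to 0.50 and -0.17 to 0.37, in a family chosen with its values known.

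Likeness of pattern was measured as Pearson's r over the 6 arrays after each group's mean was removed, so it describes only how arrays of 1 group vary. It was taken against 12733 other genes, of which those with only a Gm, Rik or clone-type symbol were left out of the ranking. With 6 points and so many genes, values near 1 arise readily, and these are descriptions. For Igfbp3 the closest were Desi2, Ssbp4, Srprb, Eif2s3x and Pmm2 (r = 0.998 to 0.996), for Igfbp4 Kif5a, Ceacam15 and Col5a3, and for Igfbp2 Pfn1, Seh1l and Atad2b. For Igfbp5 they were Mex3a, Senp3 and Cyhr1, for Igfbp6 Mrpl23, Dmac1 and Obsl1, and for Igfbp7 Fads3, S100a13 and Antxr1. For Igf1 they were Cnp, Mmaa and Megf6, for Igf1r Mmp23, Col8a1 and Foxs1, and for Insr Cby3, Kctd16 and Psma6. None of these 29 genes was past the threshold in the comparison of the groups.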

How the data were processed

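RNA of 6 samples was measured on 1-colour arrays. The authors deposited a linear signal intensity for each probe set, made with GCOS per the submitters' processing notes; no version, algorithm or scaling is named there, and only these intensities were analysed. With 3 arrays in each group, their number limits the precision. Groups and replicate numbers came from the sample titles. Any 2 arrays differed in at least 45100 of 45101 probe sets.

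Intensities were quantile-normalised between arrays, 16 was added and log2 taken. Control probe sets (AFFX, 64) were then dropped, as was the dimmest 40% of the others by mean signal (below 6.65 units after normalisation). The 27022 others were fitted with limma 3.58.1 in R 4.3.3 (lmFit, two-sided eBayes with its trend option), and p-values were adjusted over all of them by Benjamini-Hochberg, with a threshold of 0.05. The fit was checked on simulated data. A gene outside the family was represented by its brightest probe set. Gene symbols came from the array annotation, where 34945 probe sets had 1 symbol, 932 several and 9160 none. Chromosomes, gene order and start regions came from RefSeq tables of GRCm38.p6, since no build is named with the intensities.

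The members and all gene lists were chosen with earlier results of these data known. Genes named are Kdm7a, the 10 members, the direct partners, up to 6 genes past the threshold in each of the pathway, relative and FoxO lists or, if fewer than 2 passed, the 2 ranked first by p, up to 3 tested neighbours on either side, and the 5 (Igfbp3) or 3 (other members) most alike genes. Markers were named as cell types needed them. Gab1 and Sesn1 were named after their values were seen.

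Both groups carry the same replicate numbers. Deviations from group means correlated at 0.202, 0.125 and 0.130 between arrays of equal number, and at -0.150 to 0.0236 otherwise. Because the numbers are shared by both groups, an alternative fit took the number as a block of paired arrays. The pairing is inferred from the shared numbers and is not stated in the labels. The main fit leaves the pairing out, and blocked values stand beside a result where they change its call. Other scaling, pseudocounts and filters, a fibroblast covariate and leaving out each array were tried as alternatives.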

Additional observations from a re-analysis of the deposited data

How the results depend on the processing

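Both Igfbp3 probe sets and the Igfbp4 sets 1437405_a_at and 1423756_s_at kept their direction and stayed past the threshold in all 15 alternatives. All alternatives reuse the arrays from which the family was chosen, so this is a description and no independent support. Of the 21 tested member probe sets, 15 kept their sign under every alternative run and 6 changed it in at least 1, all with main differences between -0.09 and 0.10. The number past the threshold ran from 4 to 6. With the replicate block it was 6, and with the block 1665 probe sets of the whole table passed, against 995 without it. Other counts over the whole table were 581 with no normalization (474 higher and 107 lower, where the split was 526 and 469 with it), 290 with no filter, 625 without the intensity trend, 365 with the fibroblast covariate, and 252 to 823 on leaving out 1 array. With no normalization the median of all probe sets moved to 0.10. The pathway count of 1 became 0 with no normalization or no filter, stayed at 1 with the covariate (Igf2 higher in place of Grb14 lower), and was 3 with the block and 0 to 4 on leaving out 1 array. The FoxO count of 2 became 1 with no normalization, no filter or the covariate, 3 with a pseudocount of 32, with 60% of probe sets left out or with the block (Sesn1 lower in each), and 1 to 2 on leaving out 1 array. The neighbour count of 2 became 1 with no normalization, trimmed-mean scaling, no filter, no trend or the covariate, 3 with the block, and 0 to 2 on leaving out 1 array. The fibroblast mean difference ran from -0.61 to -0.23 on leaving out 1 array.

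Signs of small differences turned as follows, none of them past the threshold except Igf2 with the covariate. With no normalization Igf2 was at 0.078, Adcy1 at 0.023, Hus1 at 0.142, Upp1 at 0.053 and Arpc2 at 0.052, and with trimmed-mean scaling Hus1 was at 0.010. With the covariate Foxo1 was at -0.042, Igf2 at 0.712, Pappa at 0.254 and Hus1 at 0.063. On leaving out 1 array, Foxo1 ran from -0.120 to 0.098, Igf2 from -0.614 to 0.247, Irs1 from -0.041 to 0.604, Tmem219 from -0.268 to 0.016, Adcy1 from -0.152 to 0.029, Hus1 from -0.068 to 0.042, Upp1 from -0.140 to 0.0051, Arpc2 from -0.105 to 0.033, Rara from -0.323 to 0.026 and Krt10 from -0.025 to 0.230. The causes were not tested. Signal over background limits Igfbp1, Igfbp5, Igfbp6, Igf1 and 7 untested probe sets, whose order of levels cannot be read.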
